A study of Mus musculus with 6 samples.

Results

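The 88 genes described here encode the subunits of the mitochondrial respiratory chain and ATP synthase that are made from nuclear DNA, together with cytochrome c. They were chosen by symbol among 46959 rows of an expression table: names starting with Nduf (assembly factors named Ndufaf left out), Uqcr, Atp5, or Cox followed by a digit from 4 to 8, plus Sdha, Sdhb, Sdhc, Sdhd, Cyc1, Cycs and Usmg5. Pseudogene names ending in -ps were left out, which removed 4 rows. Complex I contributed 38 genes, complex II 4, complex III 9 including Cyc1, cytochrome c 1 (Cycs), complex IV 18 and complex V 18. The values are RPKM, which are read counts scaled to gene length and library size, from RNA sequencing of cells sorted from adult mouse islets.

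All mice were bitransgenic, carrying the reporters Ins1-H2b-mCherry, a nuclear red protein driven by an insulin promoter, and Ucn3-eGFP, a green protein driven by the urocortin 3 promoter. Cells with mCherry alone formed the immature beta cell group, cells with both colours the mature beta cell group, and cells with neither the double negative group, with 2 libraries each. Islets of several mice were pooled for each library, cultured overnight and dissociated before sorting, so a library stands for a pool and no library stands for 1 mouse. The reporters were present in all 3 groups, and no untreated or reporter-free group was part of the series.

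Complexes I and II pass electrons from NADH and succinate to ubiquinone, complex III passes them on to cytochrome c, and complex IV reduces oxygen with them. The proton gradient built by complexes I, III and IV drives ATP synthase, complex V. In beta cells this chain couples glucose oxidation to a rise in ATP, which closes ATP-sensitive potassium channels and triggers insulin release. Most subunits are encoded in the nucleus, and several of complexes I, IV and V exist as paralogs that differ between tissues.

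The libraries differed in depth and in content. The step between low RPKM values gave a depth of 2393841 and 3448927 reads for immature cells and of 22063881 to 26824373 reads for the 4 other libraries. For a gene of 1 kb, 1 read then equalled 0.418 or 0.290 RPKM in immature cells and 0.0373 to 0.0453 RPKM elsewhere. The 6 beta cell markers (Ins1, Ins2, Ucn3, Mafa, Slc2a2, Iapp) summed to 72487 and 77513 RPKM in immature, 244590 and 261370 in mature, and 4672 and 6955 in double negative libraries. The immature libraries also held markers of other cells: all 6 endothelial, 6 of 6 immune, 8 of 8 mesenchymal and pericyte, 8 of 8 acinar and 4 of 4 alpha cell genes were higher there than in mature libraries by limma's moderated test. The acinar sum was 8752 and 27585 RPKM in the immature libraries against 122 to 174 in mature ones, and the immune sum 1302 and 1336 against 45.0 and 45.2. Replicate 1 of each group is labelled male and replicate 2 female, but the X-linked Xist, a transcript of female cells, lay between 21.4 and 129 RPKM in all 6 libraries. The Y-linked Ddx3y, Eif2s3y, Kdm5d and Uty reached at most 0.161 RPKM in the libraries labelled male and were highest in immature replicate 2, labelled female (Eif2s3y 2.23), so the sex labels do not match these genes. In sorted pools, fewer cells of a type and less RNA per cell cannot be told apart, and the part these other cells had in the differences of subunit genes was not tested.

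Subunit genes sat lower in immature than in mature beta cells when read against all other genes, and the median of each of the 5 complexes lay on that side. Of 82 members that passed the filter on low values, 40 were lower in immature cells (limma, adjusted p under 0.05, background 15.5% of all genes tested) and 4 were higher (background 49.8%), while 38 did not pass. The median member differed by -0.21 on the log2(RPKM + 1) scale, while the median of all 13367 tested genes was 0.29 in the same comparison, a gap of -0.49. The difference was below the all-gene median for 77 of 82 members. In 55 of 88 members both immature libraries lay below both mature ones (background 22.5%), and in 6 above them (background 60%). Such counts for a pair of groups, here and below, include members that were not tested, while their background covers tested genes only.

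Mature cells against double negative cells gave the opposite picture in fewer genes. There 29 members were higher in mature cells (background 23.1%), 6 were lower (background 31.2%) and 47 did not pass. The median member differed by 0.14 and the median tested gene by -0.08, a gap of 0.23. Both mature libraries lay above both double negative ones in 53 of 88 members (background 35.5%) and below them in 20 (background 49.4%). Between immature and double negative cells 11 members were higher in immature cells (background 45.9%), 17 were lower (background 10.6%) and 54 did not pass, with a gap of -0.25 between the median member and the median gene. Both immature libraries lay above both double negative ones in 23 members (background 59.1%) and below them in 27 (background 17.1%). The 3 comparisons share libraries, so their values stand side by side and are not independent. Mature cells had the highest mean of the 3 groups for 54 of 82 tested members, a count not made over all genes. In 43 of these both mature libraries lay above all 4 others (18.7% of all tested genes). Immature cells came highest with both libraries in 6 members (42.4% of all tested genes) and double negative cells in 11 (12.9%).

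**Figure D1:**
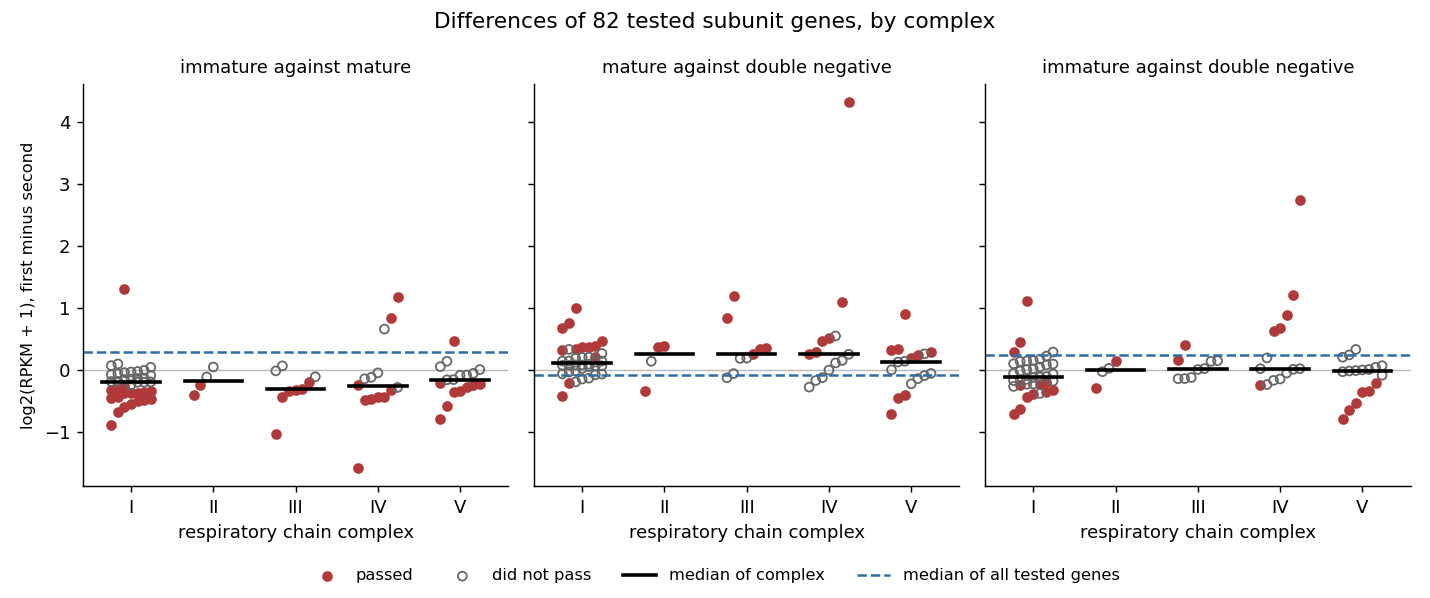
Each point is 1 of 82 tested subunit genes, placed by complex (horizontal axis) and by its difference in mean log2(RPKM + 1) between the 2 named groups (vertical axis). Filled points passed limma's test at an adjusted p of 0.05, bars are the median of a complex and the dashed line is the median of all tested genes. All 5 complex medians lie below the dashed line in the left panel; in the middle panel the isolated point at 4.33 is Cox6a2.

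The size of this group pattern depended on how libraries were put on a common scale. RPKM columns summed to 374935 and 393804 in immature, 476248 and 490389 in mature, and 428323 and 428429 in double negative libraries, and Ins2 alone took 33.2% and 34.8% of the mature sums. The 88 members together took 1.03% and 0.955% of the summed RPKM in immature, 0.989% and 0.958% in mature, and 0.949% and 0.915% in double negative libraries, so their share of the total overlapped between immature and mature cells. With every column rescaled to an equal sum (TPM), 6 members were called below the mature level in immature cells (6.52% of all tested genes). Another 19 were called above it (67.9%). Median-ratio rescaling gave 71 below (32.2%) and 2 above (33.7%), and quantile normalization 53 and 0. The split over all called genes moved with it: 76.2% of calls were higher in immature cells as deposited, 91.2% as TPM, 51.1% after median-ratio rescaling and 36.8% after quantile normalization. The median member stayed below the median gene under all 4 scalings, by -0.49, -0.51, -0.56 and -0.17 in the same order. For mature against double negative cells the gap was 0.23, 0.23 and 0.25, but -0.04 after quantile normalization, where it turned sign.

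**Figure D2:**
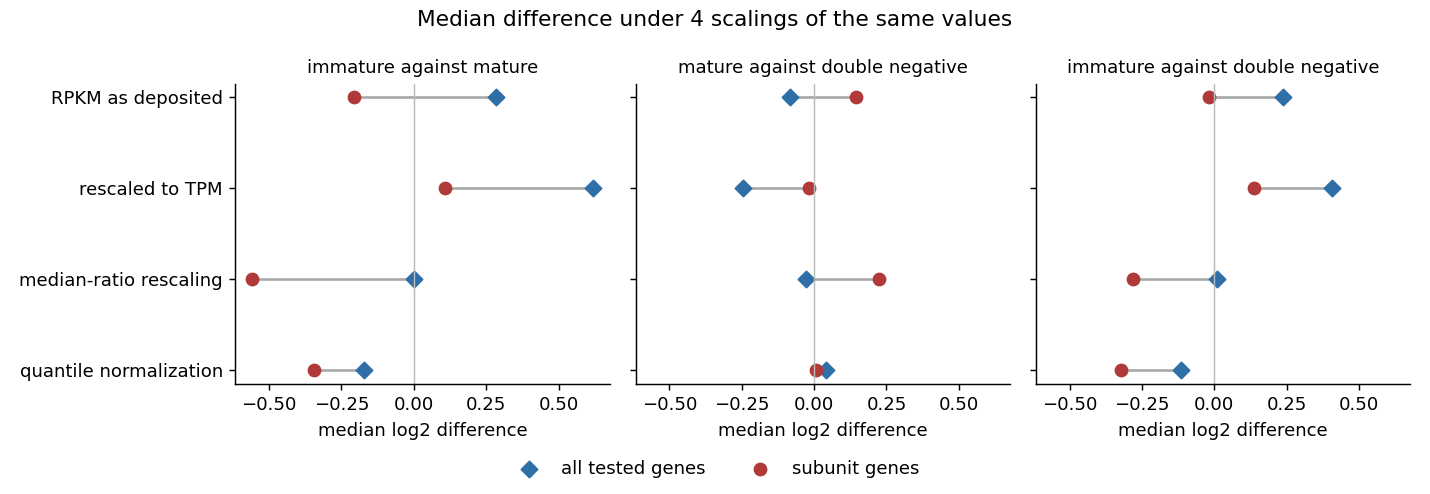
Median log2 difference of the 82 tested subunit genes (circles) and of all 13367 tested genes (diamonds) for the 3 comparisons (panels) under 4 scalings (rows). The circle lies left of the diamond in every row of the left and right panels; in the middle panel it lies right of it in 3 rows and, after quantile normalization, slightly left.

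A smaller set of members passed the test in the same direction under all 4 scalings. These were 6 lower members for immature against mature cells (6.49% of all genes) and 0 higher (21.3%). The lower ones included Cox6a2, Uqcrq, Usmg5, Ndufb4 and Ndufs5. For mature against double negative cells they were 12 higher (15.4%) and 3 lower (20.8%), and for immature against double negative cells 3 higher (21.3%) and 9 lower (6.76%). The members described first in each complex below are from these sets wherever it has one. At the level of whole complexes the make-up of the chain was close in all libraries: complex I held between 37.4% and 39.2% of the members' summed RPKM, complex II 4.42% to 5.27%, complex III 11.4% to 13.0%, complex IV 20.6% to 23.1% and complex V 21.4% to 23.5%. Complex III took 12.4% to 13.0% in the 4 beta cell libraries and 11.4% in both double negative ones, and complex IV 22% to 23.1% against 20.6% and 21.4%. A constant factor per library leaves these shares unchanged.

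In complex I, immature cells fell below the mature level in 17 of 38 members (15.5% of all tested genes) and above it in 1 (49.8%). Mature cells exceeded the double negative level in 10 of 38 (23.1%) and fell below it in 2 (31.2%). Ndufc2, an accessory subunit of the membrane arm, was graded over the 3 groups. It measured 117 and 95.8 RPKM in immature, 155 and 156 in mature, and 75.8 and 78.9 in double negative libraries, with no overlap between groups. It was higher in mature than in double negative cells by 0.997 (SE 0.10, limma adjusted p = 0.000387) and lower in immature than in mature cells by a difference of -0.55 (adjusted p = 0.00335), a call not kept under all 4 scalings. Ndufb9, another membrane-arm subunit, measured 160 in both mature libraries against 119 and 107 in immature and 101 and 99.4 in double negative ones. Its difference between mature and double negative cells was 0.67 (SE 0.06), and Ndufb8, at 19.8 and 20.7 against 14.7 and 14.0 RPKM, differed by 0.46 (SE 0.06).

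Other complex I genes were low in immature cells. Ndufb4 measured 1.07 and 1.49 RPKM in immature, 2.74 and 2.52 in mature and 2.32 and 3.16 in double negative libraries, a difference of -0.68 (SE 0.15, limma adjusted p = 0.00897) from mature and -0.71 (adjusted p = 0.00923) from double negative cells. The first call was lost without mature replicate 1 (-0.63, adjusted p = 0.0598) and the second without double negative replicate 2 (-0.55, adjusted p = 0.0574). Ndufb4 has a near-identical coding copy in the annotation, and its values in the shallow immature libraries rest on few reads, so its level is uncertain. Ndufs5, a small accessory subunit on the intermembrane side, measured 14.6 and 13.1 in immature against 21.7 and 21.1 in mature libraries, a difference of -0.59 (SE 0.09, adjusted p = 0.00172). It too has a near-identical copy. Ndufa6, which belongs to the family of LYR proteins, was highest in double negative cells. Its level was 158 RPKM in both double negative libraries against 118 and 117 in mature and 88.8 and 118 in immature ones. Immature cells were lower than double negative cells by a difference of -0.63 (SE 0.13, limma adjusted p = 0.00752). This call was kept under every scaling, at -0.89 to -0.47, but was lost without double negative replicate 1 (-0.63). Mature cells were lower than double negative cells by a difference of -0.43 (SE 0.13, adjusted p = 0.03), a call not kept under every scaling. Immature and mature cells differed by -0.20, which did not pass.

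The other called members of complex I fell into a few patterns. Ndufa2, Ndufa4 and Ndufv3, like Ndufs5, were higher in mature cells than in both other groups. Ndufa2 measured 97.1 and 117 RPKM in immature, 147 and 153 in mature, and 120 and 111 in double negative libraries, so that immature cells lay below mature cells by a difference of -0.49 (limma adjusted p = 0.00551) and mature cells above double negative cells by 0.37 (adjusted p = 0.0189). Ndufa4, a subunit now also placed in complex IV, measured 54.4 in both immature libraries, 73.5 and 74.6 in mature, and 63.6 and 63.9 in double negative ones. Its 3 groups did not overlap, but all 3 of its calls were lost after rescaling to TPM (-0.11, 0.04 and -0.07), and its difference of 0.21 between mature and double negative cells was also lost without either mature library (0.22 and 0.20) and was -0.01 after quantile normalization.

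Ndufa13, Ndufb3, Ndufb6 and Ndufs4 were lower in immature cells than in both other groups. Ndufb3 measured 29.6 in both immature libraries against 39.1 to 42.8 RPKM in the other 4 (differences of -0.47 and -0.44, limma adjusted p = 0.00113 and 0.00197). Of the exonic length of Ndufa13, 30.0% overlapped another gene, and of that of Ndufb6, 39.0%, so that reads of the neighbours could be counted with them. Ndufa5, Ndufc1, Ndufs3 and Ndufv2 were called between immature and mature cells alone, with differences of -0.37, -0.45, -0.31 and -0.37. Ndufv1, the NADH-binding flavoprotein, was called between mature and double negative cells alone, at means of 41.2 ± 1.68 against 31.2 ± 1.86 RPKM (SD, n = 2 each; difference 0.39, limma adjusted p = 0.0116).

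Ndufa10 was higher in both beta cell groups than in double negative cells, by 0.33 for mature and 0.30 for immature cells. Ndufa1 and Ndufb11 were lower in immature than in double negative cells, with differences of -0.33 and -0.39. Ndufb11 was also lower in mature than in double negative cells, with a difference of -0.20, whereas that of Ndufa1 was -0.13 and missed the threshold. Ndufb3, Ndufb11 and Ndufs3 each have 1 near-identical copy in the annotation, so their levels are uncertain.

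Of the 38 complex I genes, 15 passed in no comparison, with differences between -0.27 and 0.33: Ndufa3, Ndufa7, Ndufa8, Ndufa9, Ndufa11, Ndufa12, Ndufab1, Ndufb2, Ndufb5, Ndufb7, Ndufb10, Ndufs1, Ndufs6, Ndufs7 and Ndufs8. Mature cells held the highest mean in 25 of the 38 genes, double negative cells in 9 and immature cells in 4. Neither these counts nor the 15 without a call were made over all genes. Both mature libraries lay above all others in 17 of the 38 (18.7% of all tested genes), both double negative ones in 5 (12.9%) and both immature ones in 2 (42.4%).

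Complex II, which is also succinate dehydrogenase of the citric acid cycle and has no mitochondrially encoded part, split between its subunits. Sdhb, the iron-sulfur subunit, measured 37.9 and 37.4 RPKM in immature, 45.6 and 44 in mature, and 34.3 and 33.5 in double negative libraries. It was higher in mature than in double negative cells by 0.39 (SE 0.05, limma adjusted p = 0.00105), a call kept under all 4 scalings at 0.19 to 0.47, and lower in immature than in mature cells by a difference of -0.24 (adjusted p = 0.00556) that turned to 0.08 as TPM. Sdhc, one of the membrane anchors, measured 26.1 and 23.4, 32.7 and 33.4, and 26.0 and 24.4 in the same order, and was lower in immature and higher in mature cells by -0.41 and 0.38 against mature and double negative cells, with neither call kept under all 4 scalings.

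Sdhd, the other membrane anchor, went the other way. Its level was 75.6 and 72.8 RPKM in immature, 73.1 and 70.4 in mature, and 89.9 and 92.5 in double negative libraries, so both double negative libraries lay above all beta cell libraries. It was lower in mature than in double negative cells by a difference of -0.34 (SE 0.05, limma adjusted p = 0.00201), a call kept under all 4 scalings. Immature cells differed from double negative cells by -0.29 (adjusted p = 0.0039), which did not pass as TPM (-0.14). Sdha, the flavoprotein subunit, lay between 54.0 and 62.2 RPKM in all 6 libraries and passed in no comparison.

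In complex III, 6 of 9 members were below the mature level in immature cells (15.5% of all tested genes) and 0 above it (49.8%). In mature cells 5 of 9 were above the double negative level (23.1%) and 0 below it (31.2%). Uqcrq, a small accessory subunit, measured 48.6 and 53.0 RPKM in immature, 103 and 107 in mature, and 50.2 and 41.5 in double negative libraries. Both mature libraries lay far above the others, and the immature and double negative libraries overlapped. The differences were -1.04 (SE 0.10, limma adjusted p = 0.000292) for immature against mature and 1.19 (SE 0.10, adjusted p = 0.000219) for mature against double negative cells. Cyc1, the cytochrome c1 that hands electrons to cytochrome c, was ordered without overlap: 72.8 and 72.9 RPKM in immature, 98.4 and 98.8 in mature, 56.4 and 53.1 in double negative libraries. It was higher in mature than in double negative cells by 0.84 (SE 0.05, adjusted p = 6e-05), and lower in immature than in mature cells by a difference of -0.43 (adjusted p = 0.000609) that did not pass as TPM (-0.11).

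The core proteins and the Rieske protein of complex III moved less. Uqcrc2 measured 75.0 and 61.9 RPKM in immature against 85.9 and 86.8 in mature libraries (difference -0.34, limma adjusted p = 0.0197, lost without either mature library at -0.34 and -0.33, without a filter on low values at -0.34 and as TPM at -0.01). Uqcrc1 measured 33.3 and 33.5 in mature against 27.2 and 25.5 in double negative libraries (0.33, adjusted p = 0.00305), a call lost as TPM (0.17) and after quantile normalization (0.15). Uqcrfs1, the Rieske iron-sulfur protein, measured 60.1 and 68.9 in immature against 83.3 and 78.6 in mature libraries, a difference of -0.33 that was 0.00 as TPM and was lost without mature replicate 1 (-0.28). Uqcrb measured 19.1 and 21.8 in immature against 25.9 and 25.3 in mature libraries (-0.31), and has 3 near-identical copies. Uqcr10 was higher in both beta cell groups than in double negative cells, by 0.26 and 0.15 for mature and immature cells. The second call was lost when any library other than immature replicate 1 was left out (0.13 to 0.18), and the difference was -0.11 after median-ratio rescaling and -0.06 after quantile normalization. Uqcr11 and Uqcrh passed in no comparison. Cycs, the cytochrome c gene itself, stayed below the filter at 0.559 to 1.10 RPKM in the 6 libraries, and with 4 near-identical copies its reads may be split, so nothing can be read from its level.

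**Figure D3:**
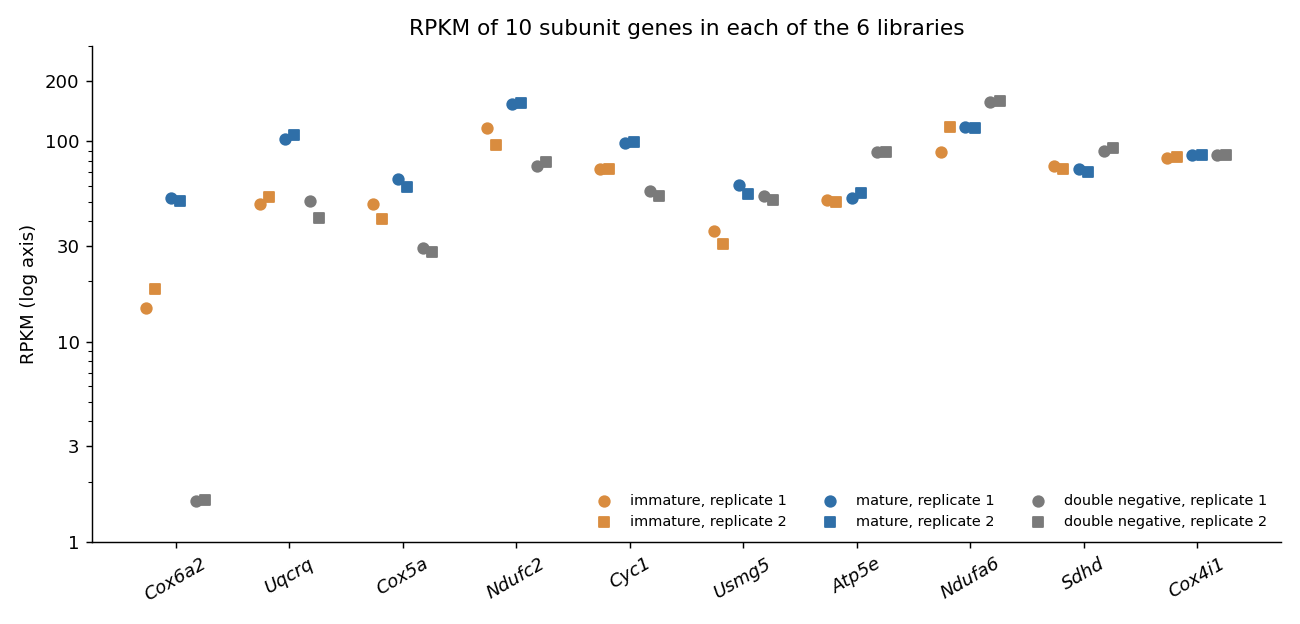
RPKM (log axis) of 10 subunit genes in each of the 6 libraries; colours mark the groups and symbols the replicates. Cox6a2 spans from 1.60 in a double negative to 52.1 in a mature library, Atp5e, Ndufa6 and Sdhd are highest in both double negative libraries, and Cox4i1 lies between 82.2 and 86.0 in all 6.

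Complex IV held the member with the largest difference of all 82. Cox6a2 is the isoform of subunit VIa that is known from heart and skeletal muscle, while Cox6a1 is the isoform found in most tissues. Cox6a2 measured 14.7 and 18.3 RPKM in immature, 52.1 and 50.4 in mature, and 1.60 and 1.62 in double negative libraries. The groups did not overlap, and the counts behind these values were 24 and 43 reads, 841 and 920 reads, and 24 and 25 reads. Mature cells exceeded double negative cells 31.9-fold in mean RPKM, a difference of 4.33 (SE 0.10, limma adjusted p = 5.85e-06). Immature cells lay below mature cells by -1.58 (SE 0.10, adjusted p = 6.97e-05) and above double negative cells by 2.74 (SE 0.10, adjusted p = 2.1e-05). All 3 calls held under each alternative tried.

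The coding sequences of the isoforms differ enough to keep their reads apart, and are printed here for that reason. Cox6a1 lies on chromosome 5 at 115345642 to 115348981 and Cox6a2 on chromosome 7 at 128205435 to 128206387, both on the minus strand of GRCm38 in the GENCODE M21 annotation. The coding exons are 336 and 291 bases long; the last 300 bases of Cox6a1 (bases 37 to 336) and all of Cox6a2 are shown, and capitals mark bases that differ from, or have no partner in, the aligned other gene.
Cox6a1: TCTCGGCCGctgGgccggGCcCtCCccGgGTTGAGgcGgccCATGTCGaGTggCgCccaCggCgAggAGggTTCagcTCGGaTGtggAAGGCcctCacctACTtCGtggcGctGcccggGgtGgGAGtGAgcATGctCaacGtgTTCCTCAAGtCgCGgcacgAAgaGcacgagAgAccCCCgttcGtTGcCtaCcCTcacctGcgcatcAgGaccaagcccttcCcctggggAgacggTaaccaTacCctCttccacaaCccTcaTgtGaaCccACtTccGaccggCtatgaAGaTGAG
Cox6a2: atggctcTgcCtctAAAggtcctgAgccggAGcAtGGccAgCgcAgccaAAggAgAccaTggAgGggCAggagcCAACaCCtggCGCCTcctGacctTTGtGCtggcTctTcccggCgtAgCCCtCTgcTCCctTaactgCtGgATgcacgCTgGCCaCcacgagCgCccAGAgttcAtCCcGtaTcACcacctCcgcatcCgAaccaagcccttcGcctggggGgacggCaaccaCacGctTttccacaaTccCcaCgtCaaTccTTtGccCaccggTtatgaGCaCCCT
Over 287 aligned bases 191 were identical (66.6%), and the longest identical stretch was 12 bases. No annotated gene had a near-identical copy of the Cox6a2 coding sequence, and 10.3% of its exonic length overlapped another gene, Itgad.

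Cox6a1 measured 138 and 147 RPKM in immature, 195 and 205 in mature, and 186 and 152 in double negative libraries. Like Cox6a2 it was lower in immature than in mature cells, by a smaller difference of -0.49 (limma adjusted p = 0.00694) that did not pass as TPM (-0.16). The mature and double negative means differed by 0.25, which did not pass (adjusted p = 0.0823) and passed without double negative replicate 1 (0.40, adjusted p = 0.0137). Cox6a2 made up 21.1% and 19.7% of the summed Cox6a RPKM in mature, 9.65% and 11.1% in immature, and 0.853% and 1.054% in double negative libraries, shares that a constant factor per library leaves unchanged. The mean of Cox6a2 in immature cells was 32.2% of that in mature cells, beside 26.4% for Ins1, 28.6% for Ins2, 27.2% for Ucn3, 20.8% for Mafa, 41.4% for Slc2a2 and 37.9% for Iapp. In double negative cells it was 3.136% of the mature level, beside 1.11% for Ins1, 1.08% for Ins2, 2.04% for Ucn3, 1.21% for Mafa, 2.89% for Slc2a2 and 8.70% for Iapp. Per 1000 RPKM of Ins1, Cox6a2 measured 1.23 and 1.37 in immature, 1.12 and 1.02 in mature, and 4.77 and 2.20 in double negative libraries. The muscle markers Myh6, Myh7, Actc1, Ckm, Mb and Tnnt2 summed to at most 0.646 RPKM in any library, 1 of the 6 was at 0 in all, and none passed the filter on low values.

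Cox5a, a matrix-side subunit, had the next largest difference of complex IV between mature and double negative cells. It measured 48.4 and 41.2 RPKM in immature, 65.1 and 59.4 in mature, and 29.4 and 27.9 in double negative libraries, without overlap. It was higher in both beta cell groups than in double negative cells, by 1.09 (SE 0.09, limma adjusted p = 0.000229) in mature and 0.62 (SE 0.09, adjusted p = 0.00236) in immature cells. Both calls were kept under all 4 scalings, at 0.85 to 1.18 and 0.36 to 0.79. Cox7a2l, a paralog known for its role in joining complexes III and IV into supercomplexes, measured 36.5 and 40.1 in mature against 24.8 and 28.0 in double negative libraries (0.52, adjusted p = 0.00292), and Cox8a, the common isoform of subunit VIII, 221 and 215 against 166 and 150 (0.46, adjusted p = 0.00219). Cox7a2l has a near-identical copy, which makes its level uncertain. Cox6b1 measured 216 and 227 in mature against 190 and 184 in immature and 191 and 178 in double negative libraries, and its lower level in immature than in mature cells (-0.24) became 0.09 as TPM. Cox4i1, the common isoform of the largest nuclear-encoded subunit, had differences of -0.05, 0.00 and -0.05 in the 3 comparisons and passed in none of them as deposited, while as TPM it was higher in immature than in mature cells by 0.28 (adjusted p = 0.0047) and after median-ratio rescaling lower by a difference of -0.40 (adjusted p = 0.00089).

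Other isoforms known to be restricted to certain tissues or conditions were low, and Ndufa4l2 was higher in immature cells. This paralog of Ndufa4, known to be induced by hypoxia, measured 4.79 and 3.32 RPKM in immature, 0.747 and 1.32 in mature, and 1.32 and 1.28 in double negative libraries, higher in immature cells by 1.31 (SE 0.19, limma adjusted p = 0.00168) and 1.12 (SE 0.19, adjusted p = 0.00427). Cox4i2, the lung isoform of subunit IV, which takes part in oxygen sensing, measured 3.18 and 1.47, 0.428 and 0.426, and 0.920 and 0.558 in the same order. Those are 6 and 4 reads, 8 and 9 reads, and 16 and 10 reads, and the gene passed the filter only through the immature libraries, so its difference of 1.17 from mature cells is given as a value and supports nothing. Quantile normalization ended the calls of both genes against mature cells (0.54 and 0.23). Whole reads were not recovered for Ndufa4l2, whose values in the shallow immature libraries also rest on few reads.

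Markers of other cells were also higher in immature than in mature cells. The 8 mesenchymal and pericyte genes summed to 142 and 101.5 RPKM in immature, 0.410 and 0.482 in mature, and 21.2 and 26.5 in double negative libraries, and the 6 endothelial genes to 452 and 453, 2.74 to 3.69, and 112 and 117. All 14 of these marker genes were higher in immature than in mature cells, as were all 6 immune and all 8 acinar genes. In mature against double negative cells 6 of 6 endothelial and 7 of 8 mesenchymal and pericyte genes were lower. Ndufa4l2 (-0.19) and Cox4i2 (-0.28) did not pass there. The part of other cells in the levels of Ndufa4l2 and Cox4i2 was not tested. Cox7a1, the heart and muscle isoform of subunit VIIa, measured 4.59 in immature replicate 1 but 1.59 in replicate 2, against 1.39 and 1.43 in mature and 0.996 and 0.363 in double negative libraries. Its call against double negative cells (1.21, limma adjusted p = 0.0356) rested on immature replicate 1 and was lost without it (0.65, adjusted p = 0.0515) and without any 1 of the mature or double negative libraries (0.93 to 1.48). Cox6b2, the testis isoform of subunit VIb, reached at most 0.754 RPKM and Cox7b2 at most 0.162, while Cox8b and Cox8c are listed at 0 in every library.

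Cox7c was higher in immature than in mature cells, by 0.84 (SE 0.20, limma adjusted p = 0.0122), at 7.02 and 11.3 against 4.81 and 4.29 RPKM, but was lost without mature replicate 2 (0.77, adjusted p = 0.0676) and after median-ratio rescaling (0.54) or quantile normalization (0.36). It has 5 near-identical copies in the annotation, so this level may hold only part of its reads. The remaining members of complex IV were Cox6c, with 18.9 and 19.3 RPKM in double negative against 17.1 and 15 in immature libraries (-0.24), Cox7b, with 53.4 and 51.0 in mature against 41.3 and 35.6 in immature libraries (-0.44), and Cox5b and Cox7a2, which passed in no comparison. Cox6c and Cox7b have 2 near-identical copies each.

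**Figure D4:**
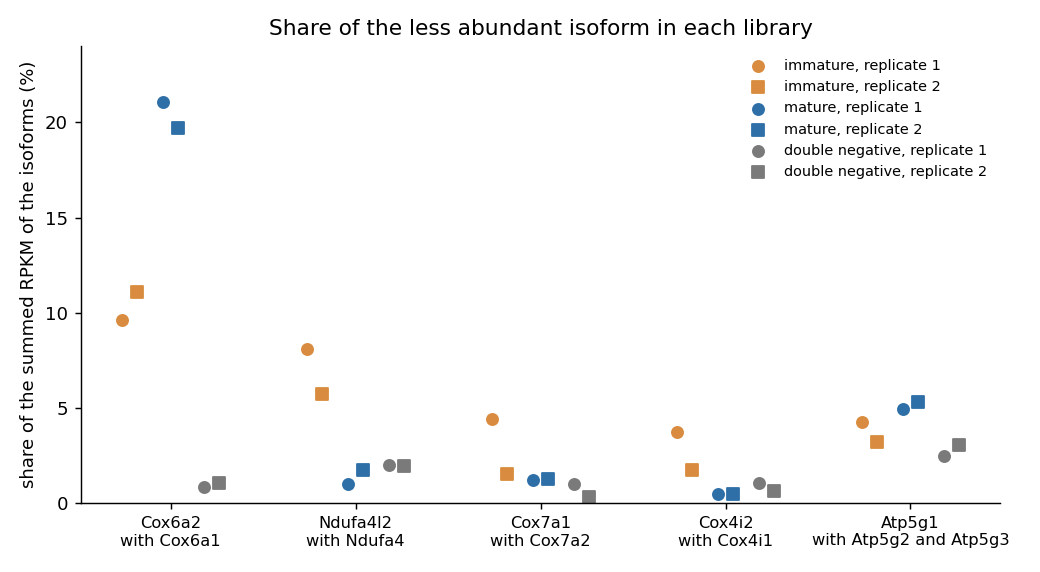
Share (%) of the less abundant isoform in the summed RPKM of its isoform group, in each of the 6 libraries; colours mark groups and symbols replicates. Cox6a2 lies near 20% in mature, near 10% in immature and near 1% in double negative libraries, while Ndufa4l2, Cox7a1 and Cox4i2 have their highest share in immature replicate 1.

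In complex V, immature cells fell below the mature level in 8 of 17 tested members (15.5% of all tested genes) and above it in 1 (49.8%). Mature cells exceeded the double negative level in 6 of 17 (23.1%) and fell below it in 3 (31.2%). The 5 genes of the F1 part, where ATP is made, all had negative differences in immature against mature cells (-0.35 to -0.09). Of these 4 passed (15.5% of all tested genes were lower). Against double negative cells the genes of the F1 part did not share a direction. Atp5a1 and Atp5b, its catalytic head, measured 231 and 228, and 209 and 204 RPKM in mature libraries against 186 and 181, and 186 and 173 in double negative ones, higher by 0.32 and 0.20 (limma adjusted p = 0.00264 and 0.0332). In immature cells both were below the mature level, by -0.28 and -0.22; neither call was kept under all 4 scalings. Atp5e, the epsilon subunit of the central stalk, measured 51.1 and 50.03 in immature, 52.2 and 55.4 in mature, and 88.3 and 88.8 in double negative libraries. It was lower than in double negative cells by a difference of -0.71 (SE 0.05, adjusted p = 0.000122) in mature and -0.80 (SE 0.05, adjusted p = 0.00011) in immature cells. Both calls were kept under each alternative tried, and ran over the 4 scalings from -0.96 to -0.63 and from -1.06 to -0.65.

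Usmg5, a small membrane subunit of ATP synthase also called DAPIT, had the largest difference of complex V between immature and mature cells. It measured 35.5 and 30.6 RPKM in immature, 60.6 and 54.8 in mature, and 53.4 and 51.0 in double negative libraries, and both immature libraries lay far below the other 4. It was lower than in mature cells by a difference of -0.79 (SE 0.09, limma adjusted p = 0.000571) and lower than in double negative cells by -0.65 (SE 0.09, adjusted p = 0.00179). Usmg5 has 3 near-identical copies, so its level is uncertain. Atp5c1, the gamma subunit of the stalk, was also low in immature cells alone, at 76.2 and 84.2 against 104 and 101 in mature and 102 and 102 in double negative libraries. Its difference was -0.35 in both comparisons, and only that against double negative cells passed as TPM. Atp5c1 has 1 near-identical copy.

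The c subunit, which forms the rotor ring, is encoded by 3 genes whose mature proteins are identical. Atp5g3 supplied between 94.1% and 96.6% of their summed RPKM in all libraries, at 82.9 and 76.0 in immature, 94.8 and 93.2 in mature, and 81.9 and 76.3 in double negative libraries. Atp5g1 measured 3.74 and 2.54, 4.95 and 5.27, and 2.09 and 2.43, and was higher in mature than in double negative cells by 0.91 (SE 0.15, limma adjusted p = 0.00378). Its share of the 3 genes was 4.94% and 5.33% in mature against 2.47% and 3.06% in double negative libraries. Its lower level in immature than in mature cells (-0.58, adjusted p = 0.0178) was lost without either mature library (-0.62 and -0.54), and it has 1 near-identical copy. Atp5g2 stayed below the filter, at 0.346 to 1.25 RPKM. It has 2 near-identical copies, while Atp5g3 has none. Reads of Atp5g1 and Atp5g2 may therefore be split, and the shares of the 3 genes are uncertain. Atp5g3 was lower in immature than in mature cells by -0.24, which became 0.09 as TPM, and higher in mature than in double negative cells by 0.25, which became 0.00 after quantile normalization.

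Of the other complex V members, Atp5l, subunit g of the membrane part, measured 13.0 and 10.6 RPKM in double negative against 8.25 and 8.32 in mature and 8.17 and 7.38 in immature libraries, lower in mature cells by a difference of -0.46 (limma adjusted p = 0.0136). Immature cells differed from double negative cells by -0.54 (limma adjusted p = 0.00733), a call kept in every alternative that gave a value. With 8 near-identical copies Atp5l is the member whose reads are most open to splitting. Its call for mature against double negative cells was lost without mature replicate 1 (-0.45), mature replicate 2 (-0.46) or double negative replicate 1 (-0.32). Atp5s, a factor B protein bound to the synthase, was lower in mature than in double negative cells by -0.40, a call lost without any 1 of these 4 libraries (-0.47 to -0.32). Atp5sl, which despite its name is known as a complex I assembly protein, was the member of this list that was higher in immature cells, by 0.47 (adjusted p = 0.00783); this did not hold after median-ratio rescaling (0.17) or quantile normalization (-0.06), or without mature replicate 2 (0.36). In immature cells Atp5d and Atp5f1 were below the mature level by -0.23 and -0.34, and Atp5j2 was lower in immature than in double negative cells by -0.22. Atp5h, Atp5j, Atp5k and Atp5o passed in no comparison.

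Counts of calls rested partly on single libraries. For the 2 comparisons with mature cells given next, the counts over all tested genes moved in the same direction in these fits. Without mature replicate 1, 18 members were higher in mature than in double negative cells and 2 lower; the lower count was also 2 without mature replicate 2 and without double negative replicate 1. For immature against mature cells the higher count was 8 without immature replicate 2 and 2 without mature replicate 2. For immature against double negative cells the higher count was 18 without immature replicate 2 and 6 without any 1 of the 4 mature and double negative libraries. Of the 88 members, 27 had at least 1 near-identical coding copy (95% identity over at least 50% of the coding sequence), and their median level was 21.8 RPKM against 38.7 for the 61 without.

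Of the 13 mitochondrially encoded partners of these subunits, 5 are listed at 0 in every library and 7 were tested. In immature against mature cells 2 of 7 were lower (background 15.5%) and 0 higher (49.8%). These were mt-Co1 (-0.33, limma adjusted p = 0.0203) and mt-Cytb (-0.29, adjusted p = 0.0341), and the median of the 7 was -0.18, beside -0.21 for the nuclear members and 0.29 for all genes. In mature against double negative cells mt-Co1, the catalytic core of complex IV, was higher by 0.35, at 3017 and 2789 against 2140 and 2405 RPKM, and in immature against double negative cells 0 of 7 passed limma's test in either direction. All 7 lay below the all-gene median in immature against mature cells and above it in mature against double negative cells.

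Assembly factors, which insert cofactors and join subunits but do not remain in the complexes, were tested for 45 of 49 genes. In immature against mature cells 10 were lower and 6 higher (background 15.5% and 49.8%), in mature against double negative cells 12 were higher and 3 lower (23.1% and 31.2%), and in immature against double negative cells 8 were higher and 5 lower (45.9% and 10.6%). Their medians were -0.02, 0.11 and 0.09, beside 0.29, -0.08 and 0.24 for all genes. Surf1, an assembly factor of complex IV, had the largest differences of the list for these comparisons with mature cells. It measured 17.2 and 16.4 RPKM in immature, 30.5 and 29.7 in mature, and 17.5 and 15.8 in double negative libraries, or -0.81 (limma adjusted p = 0.000169) and 0.82 (adjusted p = 0.000203). Sdhaf1, which helps load iron-sulfur clusters into Sdhb, was lower in immature than in mature cells by -0.59, Sdhaf4, which assists Sdha, was lower in mature than in double negative cells by -0.68, and Ttc19, a complex III factor, was higher by 0.56. Cox17, a copper chaperone for complex IV, was higher in immature than in mature cells by 0.56 at a level of 0.710 to 2.10 RPKM.

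Regulators of mitochondrial biogenesis lay close to all genes as a list. Of 13 tested, 8 were above and 1 below the mature level in immature cells (background 49.8% and 15.5%), 2 were higher and 4 lower in mature than in double negative cells (23.1% and 31.2%), and 7 were higher and 0 lower in immature than in double negative cells (45.9% and 10.6%). Their medians differed from those of all genes by 0.09, -0.09 and 0.08. The one below the mature level in immature cells was Nrf1, a factor that binds promoters of many respiratory genes. It measured 4.18 and 3.41 RPKM in immature, 4.92 and 4.97 in mature, and 2.37 and 2.503 in double negative libraries, so mature cells lay above immature ones (-0.31, limma adjusted p = 0.0369) and well above double negative cells (0.79, adjusted p = 0.00131). Tfb1m, a mitochondrial rRNA methyltransferase, was also higher in mature than in double negative cells (0.70). Esrrg, an orphan nuclear receptor, was lower there (-0.63), and Gabpa, a subunit of the ETS factor NRF2, was lower as well (-0.37). Pprc1, a coactivator of the PGC1 family, was higher in immature than in mature cells by 0.83, Polg, the mitochondrial DNA polymerase, by 0.71, and Gabpa by 0.69.

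Promoter sequences were examined for motifs of these factors, since many members shared a direction. RefSeq windows on GRCm38.p6, from 250 bases before to 50 after the start, matched 72 of 88 members with 78 windows. Cox6a2, Uqcrq, Cyc1 and Ndufb9, with large differences between mature and double negative cells, were among the members without a window. All motifs were searched on both strands. The Nrf1 motif, GCGCA followed by TGCGC, was in 6.41% of the members' windows against 0.971% of all 32851 windows, and the looser form with any base in place of that T, which contains it, in 23.1% against 4.6%. The ETS motif CCGGAAG was in 21.8% against 8.86%, the Yy1 motif AAGATGGC in 15.4% against 2.75%, and the motif TCAAGGTCA of estrogen-related receptors in 2.56% against 0.423%. Windows before the start (250 bases, on the gene's strand) are printed for 3 members with matches and for Cox5a and Ndufc2, which had large differences between mature and double negative cells and no match; capitals mark the motif matches.
Cox6a1 promoter, chr5:115348959-115349208, minus strand: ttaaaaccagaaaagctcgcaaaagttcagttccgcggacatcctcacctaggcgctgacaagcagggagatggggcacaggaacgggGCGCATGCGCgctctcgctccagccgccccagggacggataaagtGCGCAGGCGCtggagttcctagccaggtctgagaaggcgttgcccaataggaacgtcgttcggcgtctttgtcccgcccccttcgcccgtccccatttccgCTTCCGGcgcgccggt
Atp5k promoter, chr5:108434400-108434649, minus strand: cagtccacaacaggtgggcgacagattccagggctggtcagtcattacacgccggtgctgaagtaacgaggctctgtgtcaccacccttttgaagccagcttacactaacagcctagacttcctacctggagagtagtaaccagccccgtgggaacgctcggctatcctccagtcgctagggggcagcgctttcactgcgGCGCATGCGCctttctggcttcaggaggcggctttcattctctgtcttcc
Sdhd promoter, chr9:50603850-50604099, minus strand: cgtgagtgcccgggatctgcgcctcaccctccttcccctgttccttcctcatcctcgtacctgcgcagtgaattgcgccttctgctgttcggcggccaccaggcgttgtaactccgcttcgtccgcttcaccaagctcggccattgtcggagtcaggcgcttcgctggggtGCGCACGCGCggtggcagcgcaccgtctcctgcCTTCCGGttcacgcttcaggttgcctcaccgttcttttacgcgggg
Cox5a promoter, chr9:57520982-57521231, plus strand: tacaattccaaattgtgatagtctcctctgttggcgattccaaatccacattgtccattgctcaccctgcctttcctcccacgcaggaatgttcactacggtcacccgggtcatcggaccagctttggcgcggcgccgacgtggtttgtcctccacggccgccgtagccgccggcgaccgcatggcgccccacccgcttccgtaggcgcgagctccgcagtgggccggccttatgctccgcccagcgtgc
Ndufc2 promoter, chr7:97399753-97400002, plus strand: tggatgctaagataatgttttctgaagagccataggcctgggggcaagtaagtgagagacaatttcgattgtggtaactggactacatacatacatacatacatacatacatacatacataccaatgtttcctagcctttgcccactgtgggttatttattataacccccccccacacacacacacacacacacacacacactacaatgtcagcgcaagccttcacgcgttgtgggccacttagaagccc
In the printed bases Cox6a1 holds both Nrf1 forms and an ETS match, Atp5k the exact Nrf1 form, and Sdhd a Nrf1 match and an ETS match. The full windows, which run past the printed bases, also hold an ETS match for Atp5k and an estrogen-related receptor match for Sdhd. The median difference between mature and double negative cells was 0.13 over 16 tested members with an Nrf1 match and 0.14 over 51 without, with 3 and 17 higher members. For immature against mature cells the medians were -0.19 and -0.20, and in immature cells against double negative ones they were -0.11 and -0.01. For the ETS motif (17 members with and 50 without) the medians were -0.16 and -0.20, 0.13 and 0.14, and -0.09 and -0.01, in the order immature against mature, mature against double negative and immature against double negative. For the Yy1 motif (11 and 56) they were -0.15 and -0.20, 0.06 and 0.15, and -0.05 and -0.02. All these medians leave out the members without a window. Members with and without a match were not tested against each other. A match in such a window is a description of letters and no evidence of binding.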

How the data were processed

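The authors deposited 1 table of RPKM values, with a column per library and 46959 rows. Per the submitters' processing notes, the tools were STAR 2.5, featureCounts and edgeR 3.14.0 and the build was GRCm38.p4, without order or settings. The annotation release and the handling of reads with several positions are not named in them. The RPKM unit divides by gene length and library total, so a gene that takes much of a library lowers all others.

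Genes at 1 RPKM or more in at least 2 of 6 libraries (13367, including 82 members) were tested with limma (version 3.58.1, R 4.3.3) on log2(RPKM + 1). The model held 3 group means, used an intensity trend and had 3 residual degrees of freedom ahead of moderation. P-values were adjusted by Benjamini-Hochberg over all genes tested, with a threshold of 0.05. Differences on this scale understate changes of low genes. Cycs, Atp5g2, Cox6b2, Cox7b2, Cox8b and Cox8c were not tested. All differences are first minus second group. The procedure was also run on simulated counts with the same added spread in every library and few changed genes, unlike these data. Nothing here rests on that run. Replicate differences had an SD of 0.393 in the immature group, 0.132 in the mature group and 0.222 in the double negative group, while the model assumes 1 spread per gene. The separateness of the pools is not stated, and p-values cover only the spread among these libraries. Per the labels replicate 1 is male and replicate 2 female, whereas the design text names females only.

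Depth came from RPKM steps with exonic lengths of GENCODE M21. Between 78.1% and 83.8% of low values (under 200 reads) per library were whole reads within 0.02 reads, as were 74.3% of genes above 0 in all libraries and 56 of 88 members. TPM values were computed here from the deposited RPKM by giving columns equal sums. The alternatives were other scalings, pseudocount 0.1, filters, no trend, voom on recovered reads, fits on only 2 groups, a replicate block and leaving out each library. Named genes were, per comparison and complex, up to 4 called members with the largest difference and 1 direction in both replicates, plus the isoform groups, the Sdh genes, Cyc1 and Cycs; other members were added after their values were seen, and 1 member counted in the totals is not reported here. Assembly factors and regulators were named where called, up to 4 per list and comparison. The members and lists were chosen with earlier results of these data known.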

Additional observations from a re-analysis of the deposited data

How the results depend on the processing

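With 2 libraries per group and at most 3448927 reads in an immature library, members under a few RPKM rest on few reads there, and the counts of calls depend on the scaling. Of the named members, 5 of 23 called for immature against mature, 14 of 22 for mature against double negative and 6 of 17 for immature against double negative cells kept direction and call in every alternative that gave a value. TPM values, the fit on whole-read genes and a crossed replicate block were chosen after seeing the data, and the cause of changes between scalings was not tested.

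In the order immature against mature, mature against double negative and immature against double negative, with higher before lower, the counts were 4 and 40, 29 and 6, and 11 and 17. The shares of all tested genes were 49.8% and 15.5%, 23.1% and 31.2%, and 45.9% and 10.6%. Median-ratio rescaling gave 2 and 71, 41 and 3, and 4 and 48. The shares of all genes in its first and last comparison were 33.7% and 32.2%, and 28.2% and 22.8%. TPM gave 19 and 6, 12 and 13, and 24 and 9, with shares of 67.9% and 6.52%, 15.7% and 39.6%, and 56.9% and 6.79%. Quantile normalization gave 0 and 53, 15 and 13, and 4 and 48. The counts that follow are given without such shares. Without a filter on low values they were 4 and 34, 25 and 3, and 8 and 15, and a filter of 5 RPKM gave 2 and 39, 29 and 6, and 9 and 17. Voom on recovered reads, with fewer members tested, gave 2 and 22, 24 and 3, and 5 and 7, beside 2 and 27, 20 and 2, and 7 and 9 for RPKM of the same genes. With only the 2 groups compared, 6 members were higher in immature than in double negative cells. Leaving out a library gave 2 to 8 higher for immature against mature, 18 to 40 higher and 2 to 6 lower for mature against double negative, and 6 to 18 higher for immature against double negative cells.

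The gap between the median member and the median gene (-0.49, 0.23 and -0.25 in the same order) was -0.56, 0.25 and -0.29 after median-ratio rescaling, -0.17, -0.035 and -0.21 after quantile normalization, -0.56, 0.27 and -0.29 with a pseudocount of 0.1, -0.32, 0.16 and -0.13 without a filter, -0.42, 0.17 and -0.25 with the filter of 5 RPKM, and -0.61, 0.27 and -0.34 with voom. Without a library it ran from -0.53 to -0.49, 0.22 to 0.26 and -0.30 to -0.24.

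The replicate block gave 4 and 41, 30 and 5, and 10 and 15. It is a number shared by labels only: replicate differences correlated over genes at -0.01 (immature and mature), 0.14 (immature and double negative) and -0.11 (mature and double negative). The crossed block gave 29 and 5 for mature against double negative cells.

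Signs of named members turned as follows. For immature against mature cells, Sdhd was -0.30 after median-ratio rescaling, Atp5sl -0.0565 and Cox7a1 -0.14 after quantile normalization, and as TPM Uqcrfs1 was 0.0001, Sdhb 0.0794, Atp5g3 0.0868, Cox6b1 0.0869, Cox7a2 0.19, Sdha 0.21 and Cox4i1 0.28. For mature against double negative cells, Cox4i1 was 0.0804 after median-ratio rescaling, Cox7a2 -0.0198 and Sdha -0.0321 as TPM, and after quantile normalization Atp5g3 was -0.0024, Ndufa4 -0.0111, Cox7a2 -0.11, Sdha -0.11, Ndufa4l2 0.16 and Cox4i2 0.19; without a library Cox4i1 ran from -0.0088 to 0.004 and Ndufa4l2 from -0.40 to 0.0112. For immature against double negative cells, median-ratio rescaling and quantile normalization gave -0.0653 and -0.0685 for Cox7a2l, -0.11 and -0.0576 for Uqcr10, -0.11 and -0.10 for Sdhb, -0.24 and -0.19 for Sdha, -0.25 and -0.29 for Cox8a, -0.25 and -0.36 for Cox6b1, -0.26 and -0.23 for Cox7a2, and -0.26 and -0.21 for Atp5g3; quantile normalization gave -0.13 for Atp5g1, and TPM 0.11 for Cox4i1 and 0.13 for Sdhc. Without a library Atp5g3 ran from -0.0547 to 0.0689, Cox6b1 from -0.0312 to 0.0721, Cox7a2 from -0.0425 to 0.0631, Cox8a from -0.0513 to 0.0925, Sdha from -0.0348 to 0.0874 and Sdhc from -0.10 to 0.0483.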
